A study of Homo sapiens with 31 samples.

Results

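TRiC (the TCP1 ring complex, also called CCT) was described here through the transcripts of its 8 subunits, TCP1, CCT2, CCT3, CCT4, CCT5, CCT6A, CCT7 and CCT8. They were taken from the 30667 Ensembl gene identifiers of the count table by the symbol to which each identifier maps, and all 8 were measured. TRiC is the chaperonin of the cytosol of eukaryotic cells, a barrel of stacked rings in which each of the 8 subunits takes its own fixed place, so that the finished complex holds all of them in equal number. Newly made actin, tubulin and many WD-repeat proteins enter its chamber and fold there as the subunits hydrolyse ATP. Prefoldin and phosducin-like proteins bring clients to the ring or assist it, and HSPD1 with HSPE1 forms the corresponding chamber of mitochondria.

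The cells were NALM-6, a B-cell precursor acute lymphoblastic leukemia (ALL) line, kept in vitro according to the sample descriptions, which are followed here; the text on the series as a whole places them in mouse marrow. They carried 1 of 4 lentiviral constructs, EF1a/sh-CTRL, SFFV/sh-CTRL, EF1a/sh-XIAP or SFFV/sh-XIAP, in which the EF1a or the SFFV promoter drives a short hairpin RNA, embedded in a microRNA cassette behind a fluorescent reporter, against XIAP (an inhibitor of caspases) or a control sequence. The study calls the knockdown (KD) by EF1a/sh-XIAP moderate and that by SFFV/sh-XIAP strong. It quantified XIAP protein by Western blot in NALM-6 cells, where the loss was larger with SFFV than with EF1a. Because the sh-CTRL cells carry the hairpin vector too, they share transduction and sorting with the KD cells. The vector scheme of the study puts the control hairpin in cells marked by mTagBFP and the XIAP hairpin in cells marked by eGFP. Its methods for these libraries do not state whether the cells carried these markers. At day 4 after transduction there were 3 libraries with EF1a/sh-CTRL, 3 with SFFV/sh-CTRL, 2 with EF1a/sh-XIAP and 2 with SFFV/sh-XIAP. Days 10 and 13 together gave 6, 4, 5 and 6 libraries in the same order.

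RNA was read by prime-seq, which tags the 3′ end of each transcript with unique molecular identifiers (UMIs), and PCR copies of a tag count once. The 31 libraries held 312852 to 1153668 UMIs, with a median of 603822, and the subunits held 919 to 3774 UMIs of a library in sum. Levels are given as CPM, the count scaled to the total of its library. At days 10 and 13 SFFV/sh-XIAP libraries were the deepest by their median (708867 UMIs, against 464457 to 578419 in the other constructs). The targeted transcript itself was sparse, at 2 to 14 UMIs of XIAP in each of these libraries, with a log2 fold change of −0.26 for strong KD (95% interval −1.06 to 0.54). B-cell precursor markers summed to between 3998 and 4602 CPM in every library, led by IGLL1, whereas the T-cell markers held 14 UMIs in all libraries together, the erythroid markers 27, the stromal markers 30 and the myeloid markers 260, most of them from CD33 and LYZ and at most 38.4 CPM in a library. SFFV/sh-XIAP day 10 replicate 2 and EF1a/sh-XIAP day 10 replicate 2, the shallowest libraries of their constructs with 312852 and 315055 UMIs, are left out in turn where a result rests on them. Nothing states whether the replicates of a construct and day were separate cultures, so p-values measure the spread between these libraries only.

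The promoters of the most abundant subunit, CCT3, of the least abundant, CCT8, and of TCP1, whose symbol names the complex, are shown from 250 bases before to 50 bases after a RefSeq transcription start (GRCh38.p14), 5′ to 3′ on the strand of the gene. Capitals mark matches, on either strand, to CCAAT (a box bound by NF-Y), to GGGCGG (a GC box) and to GAANNTTC (a pair of inverted heat shock units). The CCT3 window lies at chr1:156338243-156338542 on the minus strand, inside the longer span that GENCODE gives to the gene.
CCT3: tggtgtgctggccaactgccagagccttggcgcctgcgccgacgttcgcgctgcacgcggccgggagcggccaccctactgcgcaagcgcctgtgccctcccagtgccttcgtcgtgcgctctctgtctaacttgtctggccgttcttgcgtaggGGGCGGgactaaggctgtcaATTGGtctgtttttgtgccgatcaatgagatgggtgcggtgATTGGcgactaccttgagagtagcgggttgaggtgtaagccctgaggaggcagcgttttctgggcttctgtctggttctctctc
The CCT8 window lies at chr21:29073599-29073898 on the minus strand.
CCT8: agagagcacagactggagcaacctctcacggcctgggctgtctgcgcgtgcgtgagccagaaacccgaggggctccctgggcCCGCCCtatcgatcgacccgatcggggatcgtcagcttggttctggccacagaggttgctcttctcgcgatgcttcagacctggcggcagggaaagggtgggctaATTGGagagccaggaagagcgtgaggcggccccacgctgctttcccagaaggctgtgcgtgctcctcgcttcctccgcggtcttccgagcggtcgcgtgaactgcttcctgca
The TCP1 window lies at chr6:159789553-159789852 on the minus strand.
TCP1: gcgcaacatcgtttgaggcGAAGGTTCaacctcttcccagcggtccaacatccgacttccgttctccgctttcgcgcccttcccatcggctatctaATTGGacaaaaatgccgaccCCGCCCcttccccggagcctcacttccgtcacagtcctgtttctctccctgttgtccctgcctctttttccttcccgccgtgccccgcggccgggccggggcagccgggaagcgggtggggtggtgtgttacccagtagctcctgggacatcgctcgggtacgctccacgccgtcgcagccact
A RefSeq window was found for 7 of the 8 subunits, CCT6A being the one without. The CCAAT letters were in windows of 4 of these 7 genes (TCP1, CCT2, CCT3 and CCT8), against 34.6% of 34796 windows of all genes. In CCT3 they occurred at −75 and −34 from the start, in CCT8 at −63, in TCP1 at −154. GGGCGG was in windows of 5 genes, against 44.9% of all windows. GAANNTTC was found for CCT2 and TCP1 (6.79% of all windows), TTCNNGAA for CCT4 (7.76%), the ETS core CCGGAAG for CCT2 (10.2%), and the E-box CACGTG in none of the 7 (7.2%). CCT2 and CCT4 have a second window each, which was searched too, while the shares over all genes are per window. Like that of CCT3, the windows of CCT5 (chr5:10250287-10250586) and CCT7 (chr2:73234058-73234357) lie inside the GENCODE span of the gene. They do not reach the starts given by GENCODE, which were not searched for these genes. All matches are of letters and were not read as sites.

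By GENCODE 29 on GRCh38 the genes are scattered over 7 chromosomes. CCT3 (ENSG00000163468) spans chr1:156308968-156367873, CCT4 (ENSG00000115484) chr2:61868089-61888804 and CCT7 (ENSG00000135624) chr2:73233420-73253021. CCT5 (ENSG00000150753) spans chr5:10249921-10266412, TCP1 (ENSG00000120438) chr6:159778498-159789749 and CCT6A (ENSG00000146731) chr7:56051630-56063989. CCT2 (ENSG00000166226) spans chr12:69585334-69601570 and CCT8 (ENSG00000156261) chr21:29055805-29073797. Several starts lie back to back with that of another gene on the opposite strand. The start of CCT5 is 24 bases from that of FAM173B, that of CCT6A 26 bases from PSPH, that of TCP1 63 bases from MRPL18 and that of CCT7 182 bases from PRADC1. Genes that overlap a subunit on the opposite strand were counted as well, and the strand used in counting is not given in the sources used here, so reads of ACAT2 (5149 UMIs over all libraries) and TCP1 (7244), or of AC012640.4 (3584) and CCT5 (9932), cannot be told apart where the genes overlap. Pseudogenes are a further limit of the levels, since they held 10.1% of the UMIs of the CCT6A family, 7.98% of the TCP1 family, 6.86% of the CCT8 family and 2.75% of the CCT5 family. For CCT2, CCT3, CCT4 and CCT7 this share was at most 0.26%.

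All 8 subunits were abundant and close to each other in level. Over the 31 libraries CCT3 was at 517 ± 30.6 CPM (SD) and CCT5 at 481 ± 31.03 CPM. CCT6A followed with 409 ± 27.7 CPM and CCT7 with 388 ± 35.2 CPM. These 4 are the upper members of the complex, and together the 8 subunits took between 0.293% and 0.333% of all UMIs in a library. TCP1 was at 350 ± 21.8 CPM, CCT2 at 348 ± 23.6 CPM, CCT4 at 327 ± 20.4 CPM and CCT8 at 309 ± 22.6 CPM. Among all genes of the table CCT3 had rank 249 by mean CPM and CCT8 rank 479. Because prime-seq counts 1 tag at the 3′ end, these values compare genes without a length correction, and how well each 3′ end was captured was not tested.

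**Figure D1:**
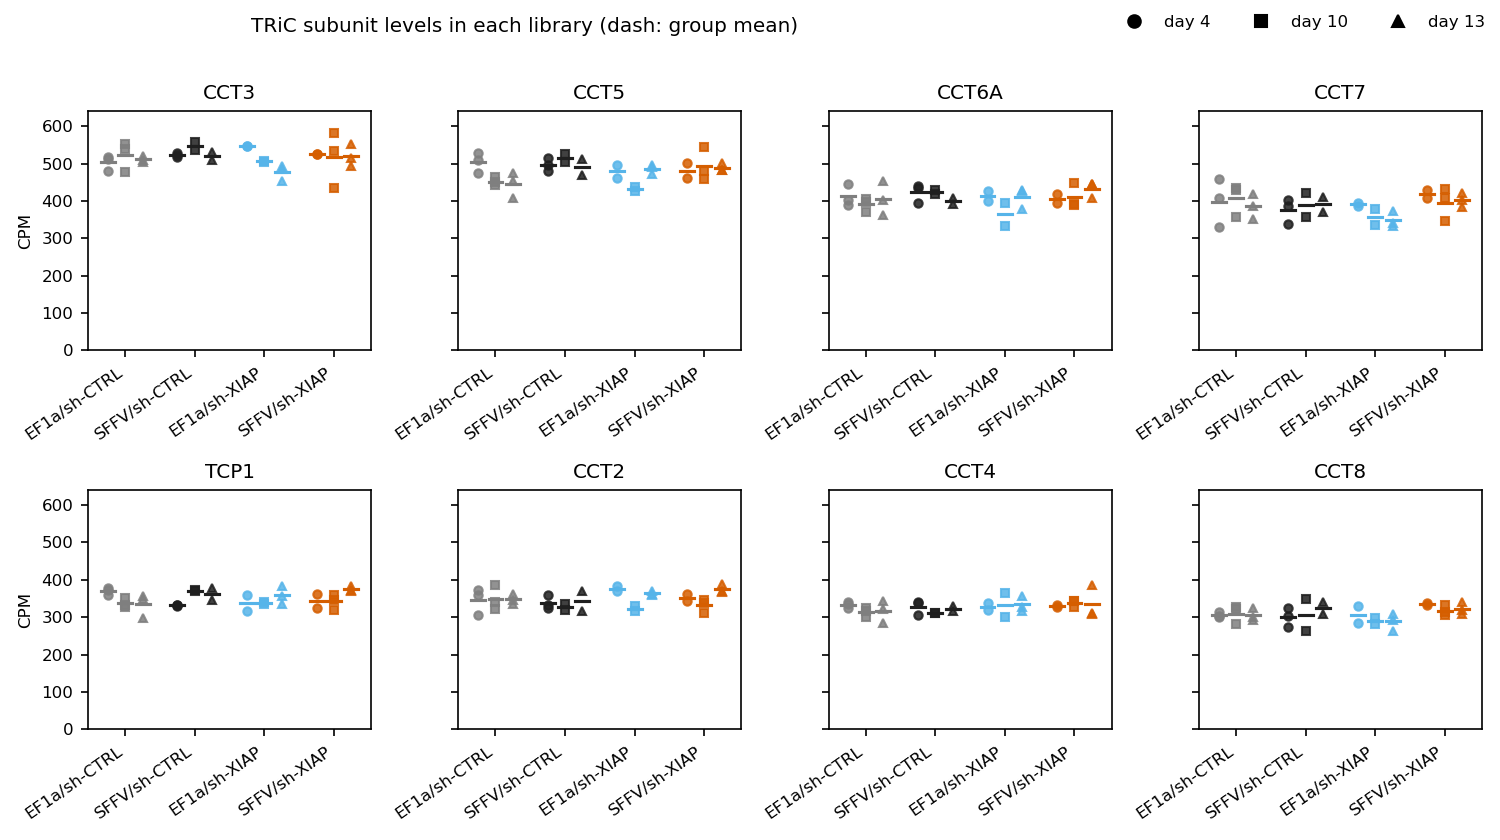
CPM of each subunit (vertical axis) in each of the 31 libraries, by construct (horizontal axis and colour) and day (symbol), with a dash at the mean of each group. All CCT3 values lie between 435 and 581 CPM and all CCT8 values, below them, between 263 and 348 CPM, while TCP1 (298 to 384 CPM) and CCT2 (306 to 388 CPM) share nearly the same range.

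To describe the stoichiometry of the transcripts, the UMIs of each subunit were divided by the sum over all 8 in the same library. An equal share would be 12.5%. CCT3 had 16.5% ± 0.843 (SD, n = 31) and CCT5 15.4% ± 0.768, the highest shares. CCT6A had 13.1% ± 0.715 and CCT7 12.4% ± 0.991, on either side of an equal share. TCP1 (11.2% ± 0.565), CCT2 (11.1% ± 0.728), CCT4 (10.5% ± 0.614) and CCT8 (9.88% ± 0.663) were below it. The mean share of CCT3 was 1.67 times that of CCT8, and the ratio of CCT3 to CCT8 UMIs lay between 1.31 and 2.03 in single libraries. By mean CPM, the 6 prefoldin subunits spanned 3.67-fold, from PFDN6 (53.4 CPM) to PFDN5 (196 CPM). The 17 subunits of the proteasome base and lid spanned 4.79-fold, from PSMC1 (48.5 CPM) to PSMC5 (233 CPM). Both sets were less abundant than TRiC, and the difference in span was not tested.

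Neighbours in the order of levels mostly changed places in some libraries. Within a library, CCT5 exceeded CCT6A in 31 of 31 libraries, with a mean log2 ratio of 0.23 ± 0.10 (SD). This was the only step of the order larger than its own SD, which is the spread between libraries. The mean steps themselves were not tested. CCT3 exceeded CCT5 in 26 of 31 libraries (0.10 ± 0.12) and CCT7 exceeded TCP1 in 24 (0.14 ± 0.16). CCT2 exceeded CCT4 in 23 (0.09 ± 0.13), CCT6A exceeded CCT7 in 20 (0.08 ± 0.16) and CCT4 exceeded CCT8 in 19 (0.08 ± 0.13). TCP1 and CCT2 had the smallest step, 0.01 ± 0.12 on the log2 scale, with TCP1 higher in 18 of 31 libraries. With the UMIs of the pseudogenes added to their parent gene, CCT6A rose to 14.0% and TCP1 to 11.7% of the sum, and CCT8 (10.2%) changed places with CCT4 (10.1%).

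**Figure D2:**
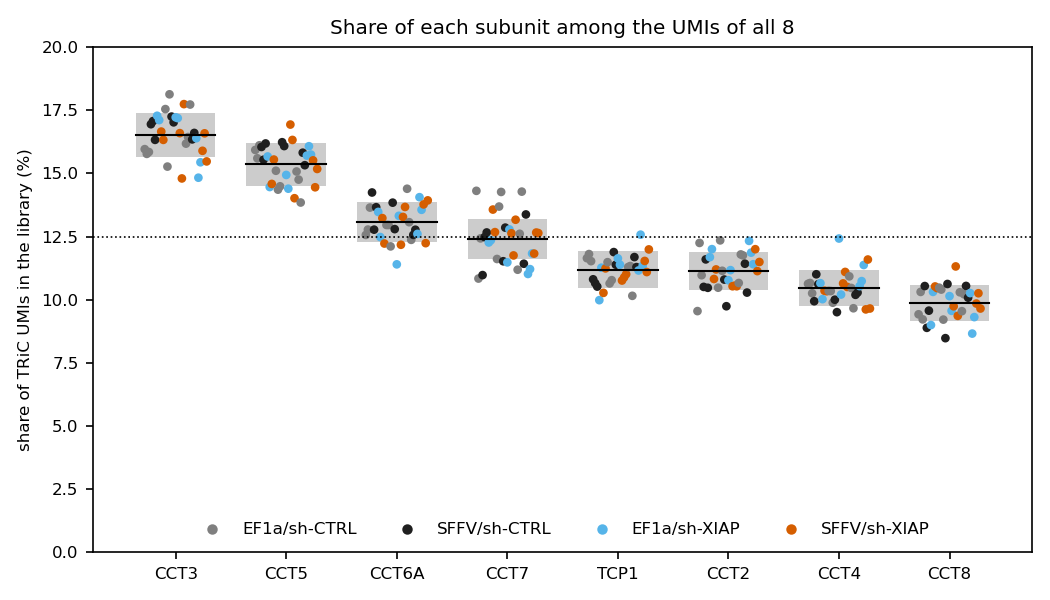
Share of each subunit among the UMIs of all 8 (vertical axis, %), 1 point per library coloured by construct, with the mean as a line, the SD that counting alone would give as a grey band and an equal share of 12.5% as a dotted line. The band reaches 1 such SD to either side of the mean, and every subunit has points outside it. Only for CCT7 was the SD of the points larger than that of counting (0.991 against 0.778).

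The shares hardly varied between libraries beyond what counting gives. Sampling the same number of UMIs would alone give an SD of 0.877 percentage points for CCT3, where 0.843 was observed. For TCP1 the observed SD was 0.76 times the counting SD, the smallest ratio, and for 7 of the 8 subunits it was below 1. CCT7 was the exception, with an SD of 0.991 against 0.778 from counting, a ratio of 1.27. The same was seen in CPM within a construct and day, where the chi-square per degree of freedom (19 degrees) would be 1 for counting error alone. It was 2.003 for CCT7 and between 0.621 (TCP1) and 1.195 (CCT6A) for the others. Among 471 other genes at least as abundant as CCT8 the median was 1.38, and 3.18% of them had a lower value than TCP1. For the same relative variation the value rises with abundance, for which the genes were not matched. CCT7 had a higher value than 76.9% of them. Its levels at day 4 with EF1a/sh-CTRL were 459, 330 and 407 CPM.

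Co-variation of the subunits between libraries was weak. After the mean of each construct and day was removed, the 28 pairs had Pearson correlations of log2 CPM from −0.18 to 0.49 over the 31 libraries, with a median of 0.07, and 20 were above 0. Over 114481 pairs among the 479 genes at least as abundant as CCT8, members included, the median was 0.06. For the proteasome subunits it was 0.0026 over 136 pairs. These libraries share depth and normalization, and counting error by itself lowers such correlations, so they are given as a description. TCP1 was most like the other subunits, with a mean of 0.26, and had the strongest pairs, with CCT5 (0.49) and with CCT6A (0.47). CCT4 and CCT5 had 0.40, and CCT3 and CCT7 0.36. CCT7 was least like the others, with a mean of −0.03 and values below 0 for 5 of its 7 pairs. All 28 pairs lay between the 5th and 95th percentiles of the pairs of abundant genes, −0.446 and 0.505. TCP1 and CCT5, the strongest pair, each varied less than counting error gives (chi-square per degree of freedom 0.621 and 0.813). The order of the subunits by correlation was not tested.

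**Figure D3:**
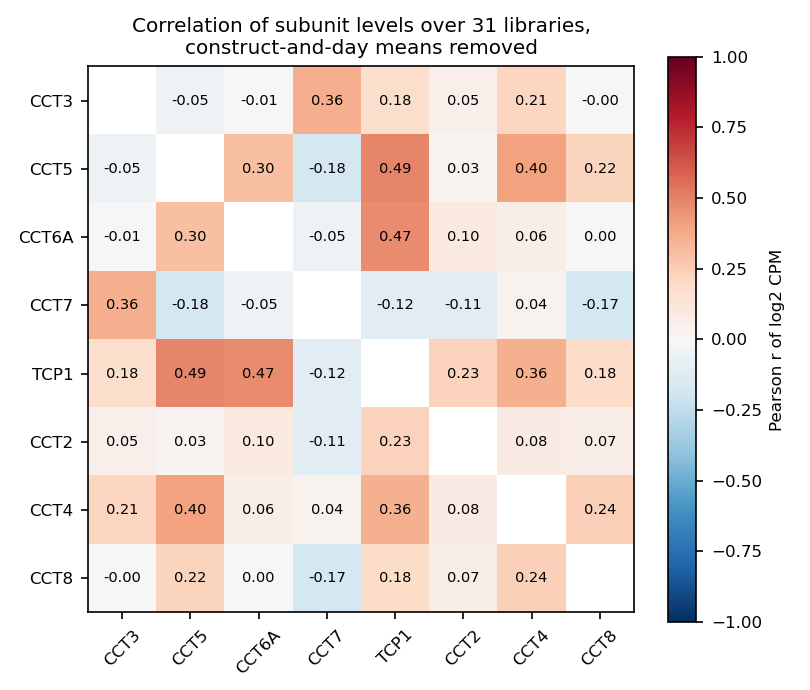
Pearson correlation of log2 CPM between each pair of subunits (both axes) over 31 libraries after the mean of each construct and day was removed, from blue (−1) through white (0) to red (1). The row of TCP1 is the reddest, with 0.49 for CCT5, and that of CCT7 is mostly pale blue, down to −0.18 with CCT5.

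The genes whose level was most like the summed level of the 8 subunits over the same 31 libraries, with group means removed, were HDGF (a growth factor, Pearson r of 0.74), MCM3 (a subunit of the replicative helicase, 0.71), IGLC2 (the constant part of an immunoglobulin light chain, 0.71), MT-CO3 (a subunit of cytochrome c oxidase, 0.68) and PDIA6 (a disulfide isomerase, 0.67). They were the highest of 471 genes, whose median was 0.21 and whose 95th percentile was 0.60.

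The summed level of the complex went with the depth of the library. Across the 31 libraries the sum was 3129 ± 109 CPM, from 2931 to 3333, a coefficient of variation of 3.48% where counting alone would give 2.36%. Its correlation with the log2 of total UMIs was 0.60 (Pearson) and 0.58 (Spearman), and 0.49 without the 2 libraries whose totals lay farthest from the median. It was 0.73 at day 4 (n = 10; 0.31 without 2 libraries) and 0.55 at days 10 and 13 (n = 21; 0.42 without 2 libraries). The Pearson value at day 4 was thus lower without those 2 libraries, whose removal also narrows the range of depth. The Spearman value over all 10 libraries of day 4 was 0.72. All 8 subunits had a positive correlation with depth, from 0.12 (CCT8) to 0.53 (CCT6A). Among 471 other single genes at least as abundant as CCT8 the median was 0.18, and 2.12% exceeded the 0.60 of the sum. A sum of 8 genes carries less counting error than a single gene, so that share does not compare like with like. The 95th percentile of the single genes was 0.534, above the value of each subunit.

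**Figure D4:**
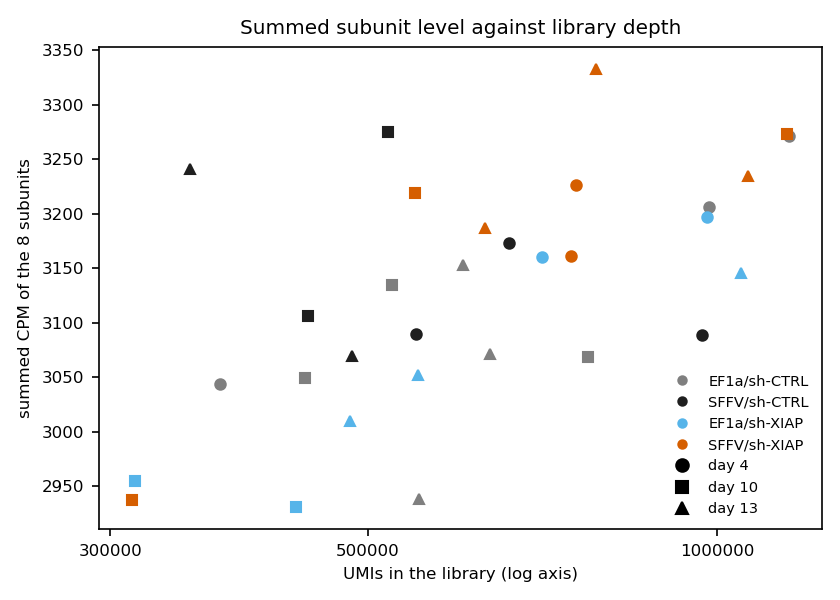
Summed CPM of the 8 subunits (vertical axis, from 2931 to 3333) against the UMIs of the library (horizontal log axis), 1 point per library, coloured by construct with a symbol for the day. Deep libraries lie higher (Pearson r of 0.60 over 31), and SFFV/sh-XIAP day 10 replicate 2 is at the lower left with 312852 UMIs and 2937 CPM.

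Whether strong XIAP KD changes the complex was asked at days 10 and 13 by setting SFFV/sh-XIAP (n = 6) against SFFV/sh-CTRL (n = 4). The threshold of the study, an adjusted p of 0.25 or less, was passed by 0 of 8 subunits in limma-voom, and none had an unadjusted p under 0.05; over all 17683 genes tested 0.0792% passed and 986 had an unadjusted p under 0.05. The edgeR quasi-likelihood test and DESeq2 called 0 of 8 as well. Log2 fold changes ran from −0.07 (CCT5) to 0.09 (CCT2), 4 above and 4 below 0, with a median of 0.01 against −0.02 for all genes tested. CCT2 had 310, 356 and 388 CPM as its lowest, median and highest level with SFFV/sh-XIAP. With SFFV/sh-CTRL it had 335 and 319 CPM at day 10 and 370 and 316 CPM at day 13, within that range. The largest difference was thus 0.09 (95% interval −0.05 to 0.23, adjusted p = 0.940 from limma). Over the 8 subunits the intervals reached from 0.879-fold to 1.17-fold, and a change beyond these bounds lies outside all 8 intervals. No subunit had groups without overlap in CPM, which 1.23% of all genes had. Without SFFV/sh-XIAP day 10 replicate 2 again 0 of 8 passed, with a median of 0.05 and 7 above 0.

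With moderate XIAP KD, EF1a/sh-XIAP (n = 5) against EF1a/sh-CTRL (n = 6), 0 of 8 subunits passed limma-voom, edgeR or DESeq2, against 0.017% of all genes in limma-voom. In edgeR 1 subunit, and in limma-voom none, had an unadjusted p under 0.05, as did 831 and 817 of all genes. CCT7 had the lowest value. It was at 336 and 378 CPM at day 10 and 332, 342 and 372 CPM at day 13 with EF1a/sh-XIAP, and at 353, 403 and 435 CPM as the lowest, median and highest with EF1a/sh-CTRL, so that the groups overlapped. Its log2 fold change was −0.13 (95% interval −0.26 to 0.01, adjusted p = 0.992 from limma). CCT4 had the highest, 0.10 (−0.04 to 0.24). The median of the 8 was −0.0017, with 3 above 0, against 0.0097 for all genes, and the intervals reached from 0.832-fold to 1.18-fold. No subunit separated the groups, where 0.424% of all genes did. Without EF1a/sh-XIAP day 10 replicate 2 the median was −0.0091 and 0 of 8 passed.

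The difference between the effects of strong and moderate KD was tested directly, and 0 of 8 subunits differed (0.00566% of all genes passed, 895 with an unadjusted p under 0.05). CCT7 had the largest difference in favour of strong KD, 0.16 on the log2 scale (95% interval −0.04 to 0.36), and CCT5 the largest in favour of moderate KD, −0.14 (−0.31 to 0.02, adjusted p = 0.964 from limma for both). These are the subunits named above for their lowest values under moderate and strong KD.

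**Figure D5:**
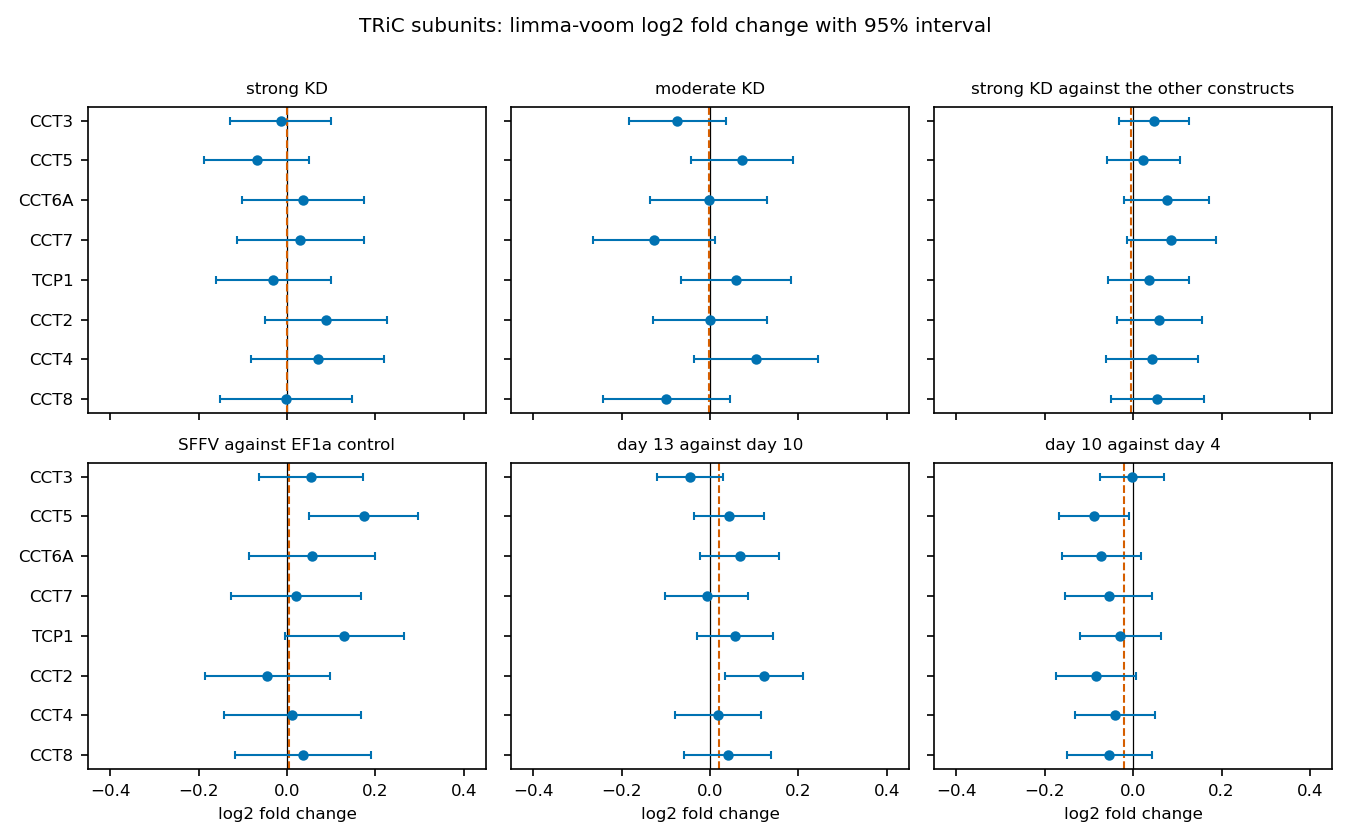
Log2 fold change of each subunit (points) with its 95% interval (bars) in 6 comparisons by limma-voom, with a solid line at 0 and a dashed line at the median of 471 other genes at least as abundant as CCT8. All intervals of strong KD cross 0; with strong KD against the other constructs the 8 points lie right of 0, from 0.02 to 0.09, and at day 10 against day 4 they lie left of it.

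SFFV/sh-XIAP (n = 6) was also compared with the average over the other constructs at days 10 and 13, where 0.843% of all genes passed, and again 0 of 8 subunits passed limma-voom, edgeR or DESeq2. Among the 8 none had an unadjusted p under 0.05 (1142 of all genes had). All 8 log2 fold changes were above 0, from 0.02 (CCT5) to 0.09 (CCT7), with a median of 0.05. Of all genes tested 48.8% were above 0, with a median of −0.0059. Of the 471 other genes at least as abundant as CCT8 47.6% were, with a median of −0.0049. CCT7 had the smallest adjusted p, 0.827 from limma (95% interval −0.01 to 0.19). The summed level was 2937, 3227 and 3333 CPM as the lowest, median and highest with SFFV/sh-XIAP. With EF1a/sh-CTRL it was 2938, 3070 and 3153 CPM. With SFFV/sh-CTRL it was 3107 and 3275 CPM at day 10 and 3241 and 3070 CPM at day 13. With EF1a/sh-XIAP it was 2931 and 2955 CPM at day 10 and 3010, 3052 and 3146 CPM at day 13. The ranges overlapped, and the strong KD libraries, which were the deepest by their median, held both the highest sum and nearly the lowest. The part of depth in these differences was not tested. The other constructs include both EF1a constructs. SFFV/sh-CTRL against EF1a/sh-CTRL gave 7 of 8 subunits above 0 (median 0.05), and strong KD against SFFV/sh-CTRL 4 of 8 (median 0.01). The part of the promoter in the shared sign was not tested.

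The promoters were compared between the control constructs, SFFV/sh-CTRL (n = 4) against EF1a/sh-CTRL (n = 6). None of the 8 subunits passed in limma-voom, edgeR or DESeq2 (0.00566% of all genes in limma-voom, 913 with an unadjusted p under 0.05), and 7 were above 0 with a median of 0.05 (0.01 for all genes). CCT5 had 504 and 527 CPM at day 10 and 513 and 470 CPM at day 13 with SFFV/sh-CTRL. With EF1a/sh-CTRL its lowest, median and highest levels were 407, 452 and 475 CPM. A single SFFV/sh-CTRL library lay within the upper end of the EF1a/sh-CTRL range. Its log2 fold change of 0.17 (95% interval 0.05 to 0.30) was the largest of any subunit at days 10 and 13 and the only one here with an unadjusted p under 0.05, which after adjustment over all genes was 0.922 (limma). TCP1 had 0.13 (−0.01 to 0.26). No subunit separated the groups, where 0.973% of all genes did. EF1a/sh-CTRL libraries, with the lower CCT5, had the higher median depth (578419 against 464457 UMIs).

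Time was compared across constructs. From day 10 to day 13, 0 of 8 subunits passed (0.0452% of all genes, 871 with an unadjusted p under 0.05; edgeR and DESeq2 0 of 8). CCT2 had the largest log2 fold change, 0.12 (95% interval 0.03 to 0.21, adjusted p = 0.982 from limma), and was the only subunit with an unadjusted p under 0.05. Its levels were 310 to 387 CPM in the 10 libraries of day 10 (median 333) and 316 to 388 CPM in the 11 of day 13 (median 362). The ranges overlap, but the upper end of day 10 is a single library, EF1a/sh-CTRL day 10 replicate 2. The next highest of day 10 was at 345 CPM, and 9 of 11 libraries of day 13 were above it. Without that replicate the adjusted p for CCT2 was 0.922 (limma). CCT3 had the lowest value, −0.04 (−0.12 to 0.03).

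From day 4 to day 10 all 8 log2 fold changes were below 0, from −0.09 (CCT5) to −0.0015 (CCT3), and 0 of 8 passed limma-voom, edgeR or DESeq2 (0.26% of all genes passed, 1115 with an unadjusted p under 0.05). The median of the 8 was −0.05, against −0.00079 for all genes and −0.02 for the 471 other genes at least as abundant as CCT8. Of the latter 34.8% were above 0. CCT5 had an interval of −0.17 to −0.0089 (adjusted p = 0.729 from limma). The 10 libraries of day 4 summed to 3043 to 3271 CPM and those of day 10 to 2931 to 3275 CPM, so the latter spread over the whole range of the former and below it. Libraries of day 4 were deeper by the medians of the constructs, 662100 to 983199 UMIs against 374524 to 548598 at day 10. The summed level went with depth, and the part of depth in the lower values of day 10 was not tested. Between day 4 and day 13 the 8 values lay from −0.07 (CCT7) to 0.03 (TCP1), 2 of them above 0, and 0 of 8 passed (0.509% of all genes, 1142 with an unadjusted p under 0.05; edgeR and DESeq2 0 of 8). Day 4 stands in both comparisons, so their signs are not independent.

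At day 4 itself the groups held 2 or 3 libraries. Strong KD called 0 of 8 subunits and 0.0% of all genes (885 with an unadjusted p under 0.05; edgeR and DESeq2 0 genes). CCT7 had 429 and 409 CPM with SFFV/sh-XIAP and 339, 386 and 402 CPM with SFFV/sh-CTRL. Both KD libraries were above all 3 controls, and the log2 fold change was 0.19 (95% interval 0.01 to 0.37, adjusted p = 0.965 from limma). CCT8, with 333 and 337 CPM against 326, 275 and 304 CPM, was separated in the same direction (0.14, −0.04 to 0.32). These 2 of 8 subunits stand beside 9.5% of all genes with both KD libraries above all controls and 9.68% with both below, so separation is common in groups of this size. Moderate KD called 0 of 8 (0.0396% of all genes in limma-voom, 864 with an unadjusted p under 0.05; edgeR and DESeq2 0 genes). Here CCT2 had the largest value, 0.17 (0.02 to 0.32, adjusted p = 0.972 from limma), with 369 and 384 CPM against 306, 373 and 359 CPM. The groups overlapped, 1 control library lying between the KD libraries. CCT3 alone was separated, with the KD libraries higher, as were 10.6% of all genes (8.08% were lower). CCT7, by contrast, was at −0.06 (−0.23 to 0.11) with moderate KD. Whether the effect of strong KD at days 10 and 13 differs from that at day 4 was tested as an interaction, which 0 of 8 subunits passed (0.0226% of all genes, 925 with an unadjusted p under 0.05; edgeR and DESeq2 0 genes). It was lowest for CCT7, −0.15 (−0.39 to 0.09), and highest for CCT6A, 0.12 (−0.09 to 0.34).

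The partners and clients of TRiC were looked at beside it, and each list is given by its counts. With strong KD against the other constructs, 0 of 6 prefoldin subunits (median log2 fold change 0.03; PFDN5, 0.05), 0 of 2 phosducin-like cochaperones tested (PDCL, 0.19) and 0 of 9 genes of the R2TP and prefoldin-like complex (median 0.07; RUVBL2, 0.02) passed. Of the 4 tubulin cofactors tested 0 passed (median 0.08, from −0.08 for TBCB to 0.21 for TBCA), as did 0 of 15 WD-repeat and other clients (median 0.07; BUB3, 0.02) and 0 of 17 proteasome subunits (median 0.03; PSMC5 the most abundant). These counts stand beside 0.843% of all genes, and 13.4% of the 471 genes at least as abundant as CCT8. Among 12 actin and tubulin clients (median −0.01, 5 above 0) ACTB alone passed, with a log2 fold change of 0.13 (95% interval 0.09 to 0.17, adjusted p = 0.000806 from limma, 0.315 from edgeR and 0.207 from DESeq2), while ACTG1, the more abundant actin, was at −0.02 (−0.06 to 0.02). ACTB also passed for strong KD against its own SFFV/sh-CTRL, with 0.17 (0.10 to 0.24, adjusted p = 0.0724 from limma), but not in edgeR (adjusted p = 0.822) or DESeq2 (adjusted p = 1.0), nor with a replicate block (adjusted p = 0.276 from limma). In that comparison 1.49% of the 471 abundant genes passed.

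Other chaperone systems held genes that were higher with SFFV/sh-XIAP than with the average of the other constructs. The lists were chosen with the rise of HSPA8 in these data already known, so the calls are a description. Of 10 HSP70 and HSP90 partners, with the transcription factor HSF1 among them, 3 passed and all 10 were above 0. They were HSPA8, the constitutive cytosolic HSP70 (0.14, adjusted p = 2.7e-05), HSP90AB1 (0.16, adjusted p = 0.00765) and HSP90AA1 (0.09, adjusted p = 0.0832, all from limma). Of 6 other chaperonin genes HSPD1 (0.13, adjusted p = 0.0529 from limma) and HSPE1 (0.26, adjusted p = 0.136 from limma), the mitochondrial chamber and its lid, passed. All of these but HSPE1 belong to the abundant genes of which 13.4% passed, against 0.843% of all genes. The interval of HSPD1, 0.07 to 0.20, overlaps that of every TRiC subunit in the same comparison, and the difference between HSPD1 and TRiC was not tested. For strong KD against its own SFFV/sh-CTRL, HSPA8 (0.13) was the one gene of these 16 that passed, and with moderate KD none of the 16 did.

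These calls rest on limma-voom. HSPA8 against the other constructs passed in edgeR (adjusted p = 0.192) and DESeq2 (adjusted p = 0.0976) too, and HSPE1 in edgeR (adjusted p = 0.0506) but not in DESeq2 (adjusted p = 0.407). HSP90AB1, HSP90AA1 and HSPD1 passed in neither, with edgeR adjusted p-values of 0.295, 0.651 and 0.318, and the same held for the HSPA8 difference from SFFV/sh-CTRL (edgeR adjusted p = 0.905). In limma-voom HSPE1 did not pass without SFFV/sh-XIAP day 10 replicate 3 (adjusted p = 0.445) or without day 13 replicate 1 of that construct (adjusted p = 0.352), nor with a replicate block (adjusted p = 0.262). The HSPA8 difference from SFFV/sh-CTRL did not pass without SFFV/sh-CTRL day 10 replicate 1 (adjusted p = 0.307 from limma) or day 13 replicate 2 (adjusted p = 0.294). Over time HDAC3, a deacetylase and TRiC client, rose from day 4 to day 13 by 0.32 (95% interval 0.16 to 0.47, adjusted p = 0.0886 from limma and 0.134 from edgeR), and it was the one gene of the client and partner lists that passed a comparison of days. It did not pass without EF1a/sh-XIAP day 4 replicate 2 (adjusted p = 0.351 from limma) or day 13 replicate 3 (adjusted p = 0.255).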

How the data were processed

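The authors deposited 1 table of UMI counts per Ensembl gene identifier, whole numbers without normalization, made from prime-seq libraries of NALM-6 cells; the submitters' processing notes name STAR 2.6.0a and the builds hg38 and mm10 (GRCh38, GRCm38). No counter, annotation or strand setting is named in the sources used here. Samples were grouped by construct and day from their labels, and all 31 were used. The methods of the study state that outliers in a principal component analysis were excluded, and some replicate numbers are absent from the labels. Whether the 31 are what remained after that step is not stated. Such a step can narrow the spread between libraries, on which the p-values rest. Symbols and positions come from GENCODE 29 (29928 of 30667 identifiers), promoter windows from RefSeq.

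As in the study, genes over 1 CPM in 1/3 of the samples or more entered the test with limma (limma-voom) after TMM scaling by edgeR, with Benjamini-Hochberg adjustment over all genes and a threshold of 0.25. The 21 libraries of days 10 and 13 were fitted with construct and day, days with all 31 libraries likewise, and day 4 effects with 12 groups of construct and day. Intervals are 95% limits of limma and cover the spread between libraries. Log2 CPM for correlations used a prior count of 2. All 8 subunits were named; other genes were named where they passed the threshold, as the most abundant of a list, or as the 5 most like the summed level. The members and lists were chosen with earlier results of these data known, the rise of HSPA8 with strong KD among them. R 4.3.3, limma 3.58.1, edgeR 4.0.16 and DESeq2 1.42.0 were used. The fits were tested on simulated data with planted changes larger than any seen in a subunit, so smaller changes were not covered. At 89 to 667 UMIs per subunit and library, counting error limits single values.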

Additional observations from a re-analysis of the deposited data

Results flagged for a closer look

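The summed level of the 8 subunits in SFFV/sh-XIAP day 10 replicate 2, 2937 CPM, stood apart from the other 5 libraries of the construct at days 10 and 13, which lay from 3187 to 3333 CPM. Its gap to the nearest took up 0.631 of the whole range, over the 95% limit of Dixon for 6 values (0.625). This was seen in 1 of 36 groups (8 subunits and their sum in 4 constructs), where chance alone flags about 1 in 20. The library had 312852 UMIs, the fewest of the 31, and whether depth bears on its level was not tested. No single subunit passed the same limit in this library.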

How the results depend on the processing

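Over 11 comparisons, 389 of 390 counts of subunits called under the alternatives stayed at 0. The exception was day 10 against day 4 without a filter on low counts, where 2 subunits passed, CCT5 and CCT2, both lower at day 10; of all genes 8868 passed there, in place of 46, and the cause was not tested. Tried were DESeq2, limma-trend, edgeR's quasi-likelihood test, DESeq2 size factors, no TMM, no filter, a threshold of 0.05, pseudogenes added, each day alone and each library left out. The threshold of 0.05 was applied to the main fit, so its counts of 0 were fixed in advance. With a replicate block 0 subunits passed in each of the 11 comparisons. The mean correlation of deviations was −0.03 over 149 same-numbered pairs, 39 of them over 0.1, and 0.02 over 290 others. With 2 or 3 libraries of a construct and day, these means do not settle whether same-numbered libraries share a culture or a batch. The 8 of 8 above 0 with strong KD against the other constructs held in all 32 alternatives, the stricter threshold on the same fit among them. At day 10 against day 4, 0 or 1 of 8 was above 0. Of 88 subunit fold changes 32 changed sign somewhere, none of them called. The summed level was 3242 CPM with pseudogenes added, in place of 3129, and the range of shares was 1.58 to 1.69. The median correlation was 0.04 to 0.14. Counts over all genes varied more: 0 (DESeq2) to 48 (edgeR) for strong KD in place of 14, 0 to 24 for moderate KD in place of 3, 0 to 37 for their difference in place of 1, 41 to 204 for strong KD against the other constructs in place of 149, 0 to 5 for the promoters in place of 1, 0 to 68 for day 13 against day 10 in place of 8, 31 to 110 for day 13 against day 4 in place of 90, and at day 4 0 to 15 for strong KD in place of 0, 0 to 41 for moderate KD in place of 7 and 0 to 6 for the interaction in place of 4. Leaving out 1 library gave 2 (without SFFV/sh-CTRL day 13 replicate 2) to 45 genes (without SFFV/sh-XIAP day 10 replicate 2) for strong KD, and 55 (without SFFV/sh-XIAP day 10 replicate 3) to 220 (without its replicate 2) against the other constructs. ACTB and HSPE1 lost their calls with the block (adjusted p = 0.276 for ACTB with strong KD and 0.262 for HSPE1 against the other constructs, from limma). Depth limits single libraries, in which a subunit had as few as 89 UMIs.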

Other observations

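The subunits occupy fixed places in the ring, and the correlations of levels were sorted by these places, a grouping chosen after the values were seen. The 8 pairs that are neighbours in the ring had a median Pearson correlation of 0.02, from −0.18 to 0.36, and the other 20 pairs a median of 0.14, from −0.12 to 0.49. The difference between these medians was not tested.

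Genes that start back to back with a subunit were far lower than the subunit. FAM173B had 0.0416 ± 0.0145 UMIs (SD, n = 31) for each UMI of CCT5, PSPH 0.0435 ± 0.0123 for each of CCT6A, PRADC1 0.0736 ± 0.0203 for each of CCT7 and MRPL18 0.226 ± 0.0378 for each of TCP1. With group means removed, the correlation between partners was 0.41 for PSPH and CCT6A and from −0.18 to 0.18 for the other 3 pairs. Counting error is large for the lower partner.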
